A study of Homo sapiens with 6 samples.

Results

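The ATP-binding cassette (ABC) genes were compared between H69M and H69, both small cell lung cancer cell lines, with 3 arrays of total RNA from each. H69, a classic neuroendocrine line, floats in culture as clumps of cells. No treatment or genotype is labelled for either line, and the origin of H69M is not labelled. Nothing says that the 3 replicates of a line are separate cultures, so p-values rest on a spread between arrays that could be technical. Members were all genes whose platform symbol is ABCA, ABCB, ABCC, ABCD, ABCE, ABCF or ABCG followed by a number alone. This gave 43 genes among the 18404 genes with a probe set of their own. For ABCB8, the only member with several probe sets (3), the brightest was used. All 43 members entered the test, since no filter on low values was applied.

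ABC proteins bind and hydrolyse ATP, and most use that energy to move a substrate across a membrane. Some members export drugs and their conjugates and are known for multidrug resistance. Others move lipids, sterols, bile salts, haem or peptides, a pair of ABCC members are regulatory subunits of potassium channels, and the ABCE and ABCF proteins work on ribosomes without spanning a membrane. ABCC1 was first isolated from a doxorubicin-selected derivative of H69. The members were therefore split by role into 10 drug efflux genes and 33 lipid and other genes.

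The main changes in H69M lay in a few members with different roles. The efflux pump genes ABCC4 and ABCC3 and the lipid transporter gene ABCA5 rose by more than 2-fold. ABCC8, a potassium channel subunit gene, and ABCA12, a skin lipid transporter gene, fell by more than 2-fold. ABCB1 and ABCG2, the best known multidrug efflux genes, did not pass the test and were dim in both lines.

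Promoters are shown for 5 members with large changes that have a promoter entry, and they differ widely in composition. ABCC8 and ABCC3 also changed strongly but have no promoter entry, so they are not shown. Each run is the 250 bases before the gene's start, 5′ to 3′ on the gene's strand, from RefSeq on GRCh38.p14, and capitals mark 2 motifs read on both strands, GGGCGG (the GC box bound by SP1) and GCGTG (the core bound by the aryl hydrocarbon receptor). ABCC4 lies at chr13:95301452-95301701, ABCA5 at chr17:69327134-69327383, ABCC9 at chr12:21941427-21941676, ABCA12 at chr2:215138627-215138876 and ABCC5 at chr3:184017885-184018134, all on the minus strand.
ABCC4: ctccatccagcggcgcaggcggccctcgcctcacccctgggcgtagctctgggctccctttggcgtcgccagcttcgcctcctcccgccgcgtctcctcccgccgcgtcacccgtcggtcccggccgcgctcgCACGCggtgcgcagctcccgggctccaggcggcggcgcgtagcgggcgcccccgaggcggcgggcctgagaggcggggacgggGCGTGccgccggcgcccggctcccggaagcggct
ABCA5: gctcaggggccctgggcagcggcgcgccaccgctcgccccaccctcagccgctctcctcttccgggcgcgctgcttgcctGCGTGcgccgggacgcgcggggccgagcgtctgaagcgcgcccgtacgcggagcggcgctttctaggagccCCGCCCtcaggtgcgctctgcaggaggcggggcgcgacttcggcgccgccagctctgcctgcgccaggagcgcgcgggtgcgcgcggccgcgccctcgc
ABCC9: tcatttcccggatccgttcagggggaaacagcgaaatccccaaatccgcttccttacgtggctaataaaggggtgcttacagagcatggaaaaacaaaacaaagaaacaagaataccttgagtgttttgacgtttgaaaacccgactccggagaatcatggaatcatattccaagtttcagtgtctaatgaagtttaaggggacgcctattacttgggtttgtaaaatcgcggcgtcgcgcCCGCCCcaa
ABCA12: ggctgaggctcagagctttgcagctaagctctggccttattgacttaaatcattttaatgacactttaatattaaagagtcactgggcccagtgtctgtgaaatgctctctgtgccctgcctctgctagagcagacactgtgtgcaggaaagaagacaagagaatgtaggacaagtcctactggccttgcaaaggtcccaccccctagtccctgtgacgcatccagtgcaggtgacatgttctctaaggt
ABCC5: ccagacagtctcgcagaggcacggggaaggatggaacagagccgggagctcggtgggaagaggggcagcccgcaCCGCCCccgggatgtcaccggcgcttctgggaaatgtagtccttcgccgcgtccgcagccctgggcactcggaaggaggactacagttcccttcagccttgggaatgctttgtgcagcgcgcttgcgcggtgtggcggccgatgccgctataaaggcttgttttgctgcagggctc

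The promoters of ABCC4 and ABCA5, which both rose, hold 42 CpG each and are 80.4% and 79.2% G or C. The promoter of ABCA12, which fell, holds 1 CpG and is 48.8% G or C. ABCC9 rose with 15 CpG and 46% G or C, and ABCC5 fell with 21 CpG and 64.8%, so composition did not follow direction in these 5. A table entry was found for 34 members. Their promoters had a median of 61.6% G or C and 15.5 CpG, against 62.8% and 18 CpG for 13766 protein-coding genes of the array. The 22 members that did not pass the test had a median of 8 CpG, the 4 that rose 28.5 and the 8 that fell 20.5. This split took no account of level. Over all genes, 20.3% of those below the 25th percentile of level passed, against 56.7% of those at or above the median. The split was not made for all genes, and the part of level in it was not tested. A GC box was found in 18 of the 34 members, and in 58.2% of all these promoters. The receptor core was found in 12 of the 34, and in 39.9% of all. Matches of the motifs overlapped in 0 of the 34 members. These matches describe letters in the window and show no binding.

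H69M differed from H69 in 17 of the 43 ABC genes (39.5%), a share near the 44.2% of all genes that passed (limma, Benjamini-Hochberg adjusted p under 0.05 over all genes). In H69M, 6 members were higher (21.0% of all genes were) and 11 were lower (23.2% of all genes were). At least 2-fold differences were found for 5 members, against 8.28% of all genes: 3 were higher (5.56% of all genes were) and 2 lower (2.72% of all genes were). Values of H69M and H69 were without overlap for 21 members (48.8%, against 55.8% of all genes). The median log2 fold change over the 43 members was -0.012, and over all genes -0.041. By number, then, the family stood near the background, and the following paragraphs are about which members moved.

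**Figure D1:**
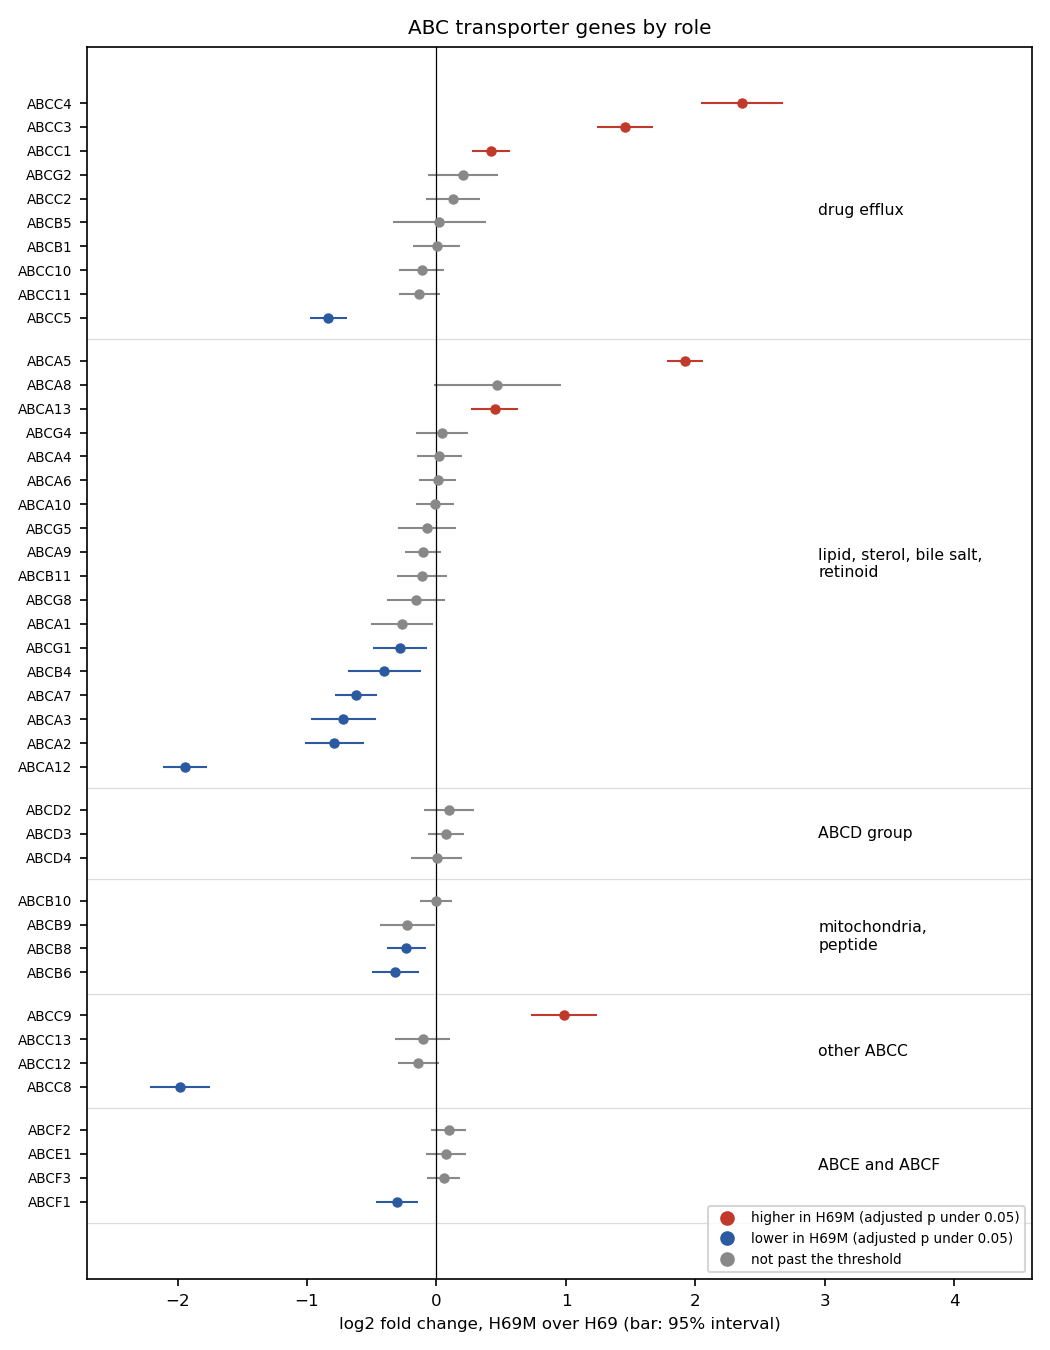
Log2 fold change of each of the 43 ABC genes, H69M over H69, grouped by role, with limma's 95% interval as a bar and the colour giving the call at an adjusted p of 0.05. ABCC4 stands furthest to the right at 2.36 and ABCC8 furthest to the left at -1.98, and 26 members in grey did not pass.

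How bright a member was went with how often it was called. Of the 43 members, 21 had a mean level below the 25th percentile of all genes (5.58 on the log2 scale), 6 lay between it and the median (7.16), and 16 lay above the median. Calls were made for 5 of the 21 dim members and 9 of the 16 bright ones. Over all genes, 20.3% of the dim and 56.7% of the bright ones were called. Among the called members, 7 had their lower line below the 25th percentile: ABCA5, ABCA12, ABCA13, ABCB4, ABCC3, ABCC4 and ABCC9. Of these, ABCA13, ABCB4 and ABCC9 lay below it in both lines. RMA, the summary named for these values, compresses folds against dim levels, so these folds can understate the change. The arrays carry no detection call.

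**Figure D2:**
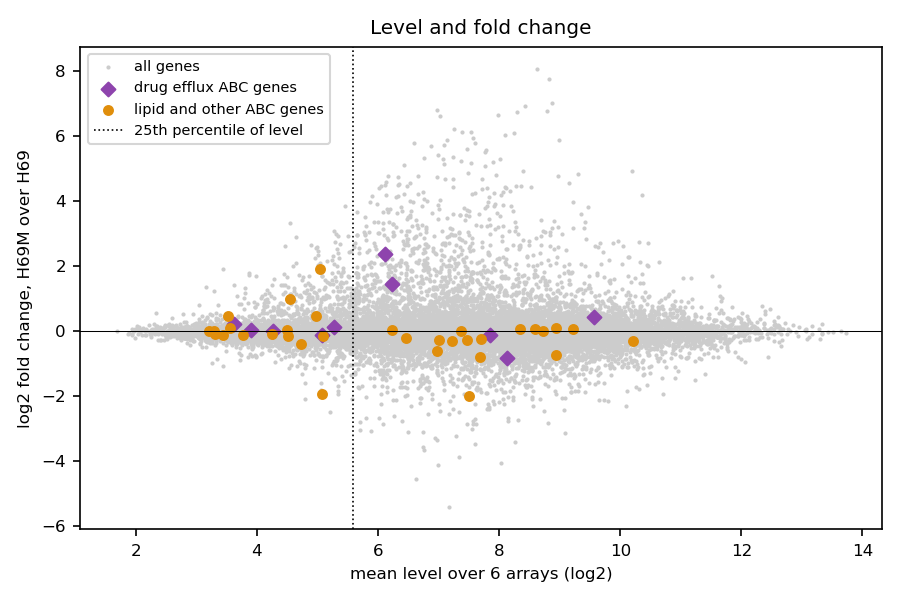
Log2 fold change, H69M over H69, against the mean log2 level over the 6 arrays for all genes (grey), drug efflux ABC genes (purple diamonds) and the other ABC genes (orange), with the 25th percentile of level as a dotted line. ABCC4 (2.36) and ABCC3 (1.45) lie just right of the line, and the dim efflux genes to its left lie near 0.

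Of the 10 drug efflux genes, 3 rose in H69M, 1 fell and 6 did not pass. Their median log2 fold change was 0.076, against -0.041 for all genes and -0.10 for the 33 lipid and other ABC genes. Of those 33, 3 rose and 10 fell. Calls for 4 of the 10 and 13 of the 33 stood near the 44.2% of all genes that passed. Left without genes below the 25th percentile of level, which removes 5 efflux genes, the efflux median became 0.42. It turned to -0.11 without genes below the median level, and to -0.11 with a wider efflux list of 15 measured genes. No test sets these lists against each other.

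ABCC4 exports cyclic nucleotides, prostaglandins and nucleotide-like drugs. Its log2 level (probe set 7972297, chromosome 13) was 7.25, 7.49 and 7.15 on the H69M arrays, against 4.80, 5.23 and 4.79 on the H69 arrays. The lines did not overlap, and every H69M array stood at least 1.92 above every H69 array. The log2 fold change was 2.36 ± 0.14 (SE), a 5.13-fold rise (limma, Benjamini-Hochberg adjusted p = 6.08e-06), and leaving out each array in turn gave 2.26 to 2.50. ABCC3 exports glucuronide conjugates and bile salts. It stood at 6.90, 6.89 and 7.07 in H69M and at 5.52, 5.33 and 5.65 in H69 (log2, probe set 8008454, chromosome 17). Here too the lines were apart, by 1.45 ± 0.094 (log2, SE) or 2.74-fold (limma adjusted p = 1.05e-05).

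ABCC1, which exports glutathione conjugates such as leukotriene C, was bright in both lines and rose less. The H69M arrays read 9.80, 9.75 and 9.79, and the H69 arrays 9.41, 9.40 and 9.27 (log2, probe set 7993478, chromosome 16). The groups did not overlap, with a fold change of 0.42 ± 0.063 in log2 or 1.34-fold (limma adjusted p = 0.000993). ABCC5, an exporter of cyclic nucleotides and nucleotide analogs like ABCC4, went the other way. It read 7.78, 7.64 and 7.71 in H69M, against 8.55, 8.52 and 8.57 in H69 (log2, probe set 8092418, chromosome 3). All H69M arrays were lower: the log2 fold change was -0.83 ± 0.061 (SE), or 1.78-fold lower (limma adjusted p = 1.97e-05).

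The other efflux genes did not pass. ABCB1, which encodes P-glycoprotein, read 4.32, 4.14 and 4.33 in H69M, against 4.18, 4.36 and 4.26 in H69 (log2). The arrays overlapped, and the log2 fold change was 0.00082 with a 95% interval of -0.18 to 0.18. ABCG2, the breast cancer resistance protein gene, read 3.86, 3.55 and 3.78 in H69M, against 3.38, 3.75 and 3.44 in H69, also with overlap. Its log2 fold change was 0.20, with an interval of -0.065 to 0.48 and a limma adjusted p = 0.196. That became 0.0485 without H69 replicate 2 (fold change 0.32).

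ABCC2, the pump for organic anions at the bile canaliculus, had a log2 fold change of 0.13 (limma adjusted p = 0.287, or 0.0421 without H69M replicate 3, with a fold change of 0.22). ABCC11, known for the earwax trait, had -0.13 (limma adjusted p = 0.152, or 0.0334 without H69M replicate 1, with -0.19). ABCB5, studied in melanoma, had 0.022 with an interval of -0.34 to 0.38. ABCC10, which can export taxanes, had -0.11 with an interval of -0.29 to 0.059. ABCB1, ABCB5, ABCC2, ABCC11 and ABCG2 all had a mean level below the 25th percentile.

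**Figure D3:**
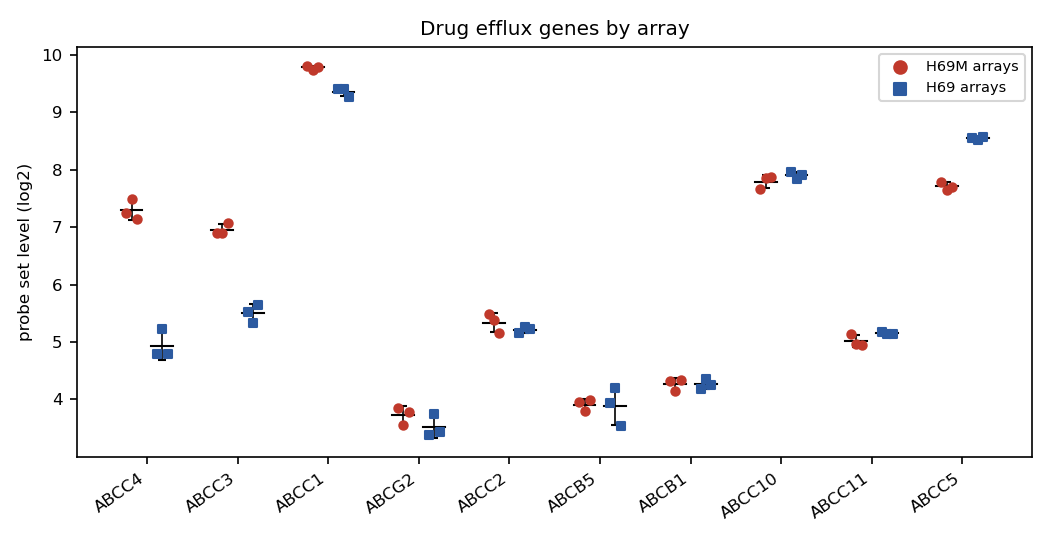
Log2 probe set level of the 10 drug efflux genes on each H69M array (red circles) and H69 array (blue squares), with the mean and SD of 3 arrays in black. H69M stands clear above H69 for ABCC4, ABCC3 and ABCC1 and clear below it for ABCC5, while the points of the other 6 genes overlap. Levels of different genes come from different probes and are not comparable.

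The regulatory subunits of ATP-sensitive potassium channels moved in opposite directions, and their pore partners moved with them. ABCC9 encodes the sulfonylurea receptor of muscle and vascular cells and ABCC8 that of beta cells and neurons. ABCC9 read 5.15, 5.11 and 4.86 in H69M, against 3.86, 4.15 and 4.17 in H69 (log2, probe set 7961710, chromosome 12). Its arrays did not overlap, and it rose by 0.98 ± 0.11 (log2, SE) or 1.98-fold (limma adjusted p = 0.000199). Its mean was below the 25th percentile of level in both lines. ABCC8 read 6.56, 6.31 and 6.64 in H69M, against 8.38, 8.48 and 8.60 in H69 (log2, probe set 7946860, chromosome 11). Every H69M array was lower, with a log2 fold change of -1.98 ± 0.099 (SE), or 3.95-fold lower (limma adjusted p = 2.86e-06).

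KCNJ8, the pore gene next to ABCC9 on chromosome 12, read 7.37, 7.43 and 6.88 in H69M, against 5.24, 5.29 and 5.50 in H69 (log2). It rose by 1.89 ± 0.15 (log2, SE; limma adjusted p = 2.8e-05). KCNJ11, the pore gene next to ABCC8 on chromosome 11, read 5.96, 5.79 and 5.63 in H69M, against 6.76, 6.68 and 6.59 in H69 (log2). It fell, with a log2 fold change of -0.88 ± 0.093 (SE; limma adjusted p = 0.000151). So ABCC9 with KCNJ8 was higher in H69M, and ABCC8 with KCNJ11 was lower. Of the 10 measured genes nearest to ABCC8 on the genome, KCNJ11 included, 5 fell and 0 rose, with a median log2 fold change of -0.31. Of the 10 nearest to ABCC9, KCNJ8 included, 4 rose and 2 fell, with a median of -0.015. Over all genes 21.0% rose and 23.2% fell. A run of falls was also found near members that did not pass. For ABCB5, 6 of the 10 nearest genes fell and 0 rose, with a median of -0.33. The part of chromosome position in these changes was not tested.

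**Figure D4:**
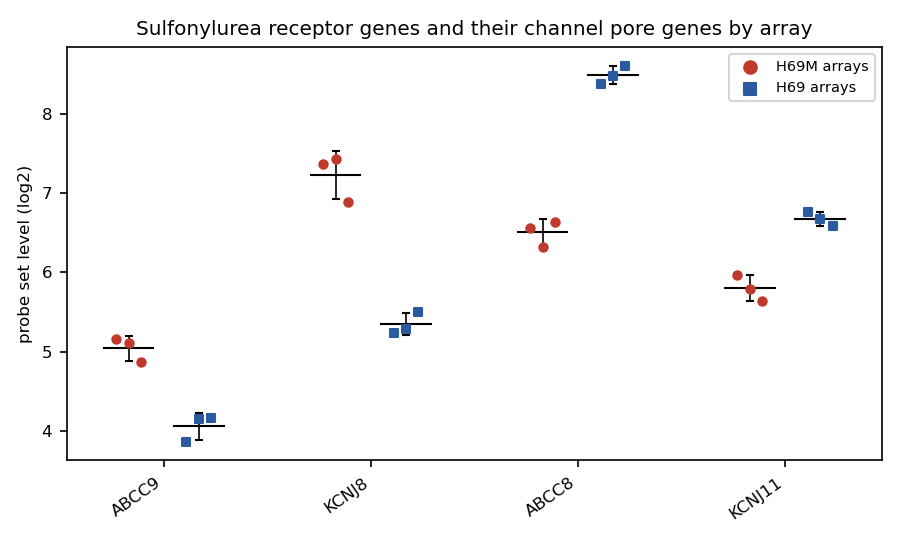
Log2 probe set level of ABCC9, KCNJ8, ABCC8 and KCNJ11 on each H69M array (red circles) and H69 array (blue squares), with the mean and SD of 3 arrays in black. The H69M points lie above the H69 points for ABCC9 and KCNJ8 and below them for ABCC8 and KCNJ11, with no overlap in any of the 4 genes.

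The remaining ABCC members did not pass. ABCC12, of unsettled function, had a log2 fold change of -0.14, and ABCC13, a gene without a working transporter in humans, had -0.11. Both were dim in both lines.

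Of 18 lipid, sterol, bile salt and retinoid transporters, 2 rose in H69M, 6 fell and 10 did not pass, with a median log2 fold change of -0.11. Over all genes 21.0% rose and 23.2% fell, so the calls in this group stood near the background. ABCA5, a transporter of late endosomes and lysosomes, rose. It read 6.03, 5.97 and 5.99 in H69M, against 4.05, 4.02 and 4.15 in H69 (log2, probe set 8018038, chromosome 17). The arrays of each line lay close together and far from the other line, and the rise was 1.92 ± 0.060 (log2, SE) or 3.79-fold (limma adjusted p = 3.12e-07). ABCA5 sits in a row with ABCA8, ABCA9, ABCA6 and ABCA10 on chromosome 17. Those 4 related genes were dim, and none passed. The log2 fold change was -0.10 for ABCA9, 0.0099 for ABCA6 and -0.012 for ABCA10.

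ABCA8, the other gene of that row, varied between H69M arrays. It read 4.17, 3.90 and 3.23 in H69M, against 3.37, 3.19 and 3.32 in H69 (log2). Replicate 3 of H69M lay among the H69 arrays and the other 2 above them. The log2 fold change was 0.47 with a limma adjusted p = 0.11, and 0.74 with an adjusted p = 0.001 without H69M replicate 3. ABCA13, a very large and little studied member, rose by 0.45 ± 0.079 (log2, SE; limma adjusted p = 0.00225), with means of 5.21 ± 0.070 in H69M and 4.76 ± 0.13 in H69 (SD, n = 3 each).

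ABCA12 had the largest fall of the ABCA members. It moves glucosylceramides into the lamellar granules of keratinocytes. The H69M arrays read 4.05, 4.02 and 4.25, and the H69 arrays 6.04, 6.06 and 6.06 (log2, probe set 8058708, chromosome 2). The lines were well apart, with a log2 fold change of -1.94 ± 0.072 (SE), or 3.84-fold lower in H69M (limma adjusted p = 6.81e-07). ABCA2, an endolysosomal lipid transporter of brain and myelin, averaged 7.29 ± 0.20 in H69M and 8.07 ± 0.055 in H69 (log2, SD, n = 3 each). Its log2 fold change was -0.79 ± 0.099 (SE; limma adjusted p = 0.000379).

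ABCA3, which loads surfactant phospholipid into the lamellar bodies of alveolar cells, read 8.85, 8.47 and 8.44 in H69M, against 9.29, 9.33 and 9.29 in H69 (log2). It fell, with a log2 fold change of -0.72 ± 0.11 (SE; limma adjusted p = 0.000997), and H69M replicate 1 was the array nearest to H69. ABCA7, a phospholipid transporter linked to Alzheimer disease, read 6.75, 6.61 and 6.61 in H69M, against 7.20, 7.33 and 7.30 in H69. Its log2 fold change was -0.62 ± 0.069 (SE; limma adjusted p = 0.000191). For ABCA2, ABCA3 and ABCA7 no array of one line overlapped the other, and the calls held without each array in turn.

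Cholesterol exporters moved less. ABCG1, which passes cholesterol to high-density lipoprotein, had a log2 fold change of -0.28 ± 0.090 (SE; limma adjusted p = 0.0346). It did not hold when H69 replicate 1 (adjusted p 0.101), 2 (0.0692) or 3 (0.0791) or H69M replicate 2 (0.0854) or 3 (0.0855) was left out. ABCA1, which passes cholesterol to apolipoprotein A-I, read 7.08, 6.83 and 6.73 in H69M, against 7.27, 7.14 and 7.02 in H69 (log2), with a small overlap. Its log2 fold change of -0.27 missed the threshold (limma adjusted p = 0.0739). It passed on leaving out H69M replicate 1 (-0.37, adjusted p = 0.0147), with array weights (adjusted p = 0.0243) and with a replicate block (adjusted p = 0.0201). ABCB4, which moves phosphatidylcholine into bile, had -0.40 ± 0.12 (SE; limma adjusted p = 0.0292). Its call went when H69 replicate 1 (0.0713) was left out, or H69M replicate 1 (0.0592) or 2 (0.0962), and with quantile normalization applied again (0.0594). ABCG5 and ABCG8, partners in sterol export, had -0.074 and -0.16 and did not pass. Neither did ABCG4 (0.040), the retinoid transporter gene ABCA4 (0.022) or the bile salt pump gene ABCB11 (-0.12).

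**Figure D5:**
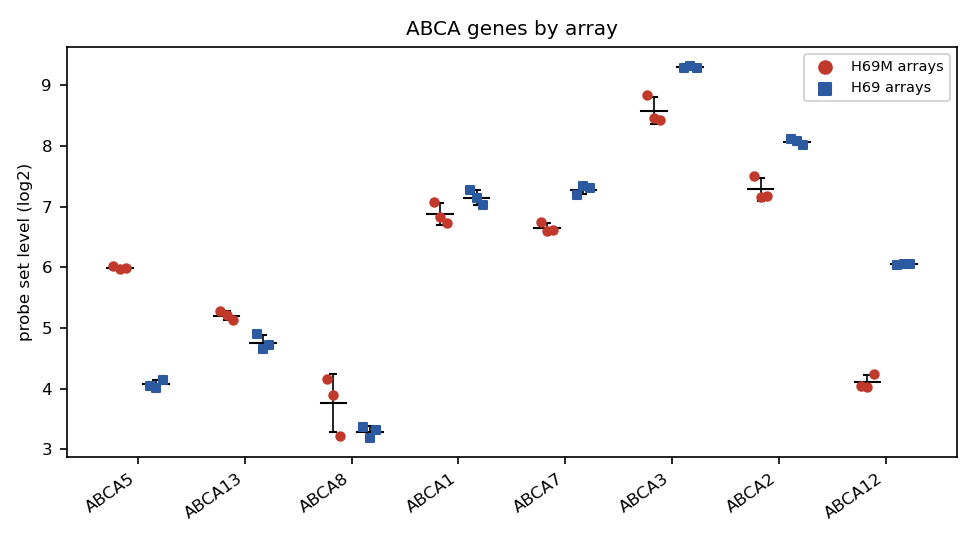
Log2 probe set level of 8 ABCA genes on each H69M array (red circles) and H69 array (blue squares), with the mean and SD of 3 arrays in black. ABCA5 stands clear above H69 in H69M and ABCA12 clear below it, and the third H69M point of ABCA8 lies among the H69 points.

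Transporters of peroxisomes and mitochondria and the ribosomal ABC proteins moved little. The 3 measured ABCD genes, of peroxisomes and lysosomes, did not pass, with log2 fold changes of 0.097 (ABCD2), 0.073 (ABCD3) and 0.0020 (ABCD4). Among 4 mitochondrial and peptide transporters, ABCB6, which carries porphyrins, had -0.32 ± 0.079 (log2, SE; limma adjusted p = 0.0125). The mitochondrial gene ABCB8 had -0.23 ± 0.064 (SE; limma adjusted p = 0.0193). Its call went when H69 replicate 2 (0.0718) was left out, or H69M replicate 1 (0.0507) or 2 (0.0558), and with its dimmest probe set (0.0626). Its other probe sets had log2 fold changes of -0.086 and -0.23. ABCB9, a lysosomal peptide transporter, had -0.22 (limma adjusted p = 0.0805), which passed with array weights (0.0272), without H69 replicate 3 (0.0273) and without H69M replicate 1 (0.0398). ABCB10, of the inner mitochondrial membrane, had -0.0063 with an interval of -0.13 to 0.12. ABCE1, which splits ribosomes after termination, had 0.075, ABCF2 had 0.095 and ABCF3 had 0.055, and none passed. ABCF1, which acts in translation initiation, had -0.31 ± 0.070 (log2, SE; limma adjusted p = 0.00811).

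ABC family genes named by other symbols lay outside the rule, and 2 of 3 rose. TAP1, a subunit of the antigen peptide transporter, averaged 9.24 ± 0.35 in H69M and 5.67 ± 0.13 in H69 (log2, SD, n = 3 each), a rise of 3.58 (limma adjusted p = 1.71e-06). Its partner TAP2 rose by 2.13 (limma adjusted p = 9e-06) in its brightest probe set, while its other probe sets gave 4.18 and 0.54. The call was lost with the dimmest of them (limma adjusted p = 0.163). CFTR, a chloride channel, had -0.098 and did not pass.

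Genes that regulate or work with ABC proteins were mixed. Of 14 measured regulators, 6 rose and 4 fell (median log2 fold change 0.021). The nuclear receptor partner RXRG fell by 4.11 in log2, while the related RXRA rose by 1.04 and RXRB fell by 0.34. The xenobiotic receptor AHR rose by 3.26 and the fatty acid receptors PPARG and PPARD by 2.54 and 1.70. Of 14 partners, 5 rose and 3 fell (median 0.0044). Besides the channel pores, the vault protein gene MVP rose by 0.68 and LMBRD1, the lysosomal partner of ABCD4, fell by 0.66. Of 21 drug uptake and conjugation genes, 8 rose and 6 fell (median 0.018). The glutathione transferase genes GSTM3 and GSTM1 rose by 1.35 and 0.87 and the copper pump gene ATP7A by 1.23, and the nucleoside carrier gene SLC29A1 fell by 1.01. These medians stood beside -0.041 for all genes. Calls were made for 10 of the 14 regulators and 8 of the 14 partners. Among uptake and conjugation genes, 14 of the 21 were called, and over all genes 44.2%. The median absolute log2 fold changes of these lists were 0.58, 0.31 and 0.51, against 0.19 for all genes. Whether the lists differ from the background was not tested.

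Across the arrays, same-line correlations over genes were 0.995 to 0.998 and between-line ones 0.938 to 0.950, and array medians were 6.43 to 6.48. H69M replicate 1 lay nearest to H69 in the first principal component, and for 4479 of the 8140 called genes. Among the 17 called ABC genes it was nearest for 7, replicate 3 for 7 and replicate 2 for 3. The label of a neuroendocrine tumour cell was checked with 10 markers, all above the 25th percentile of level in both lines. INSM1, for example, averaged 10.10 in H69M and 10.43 in H69 (log2). Of these markers 0 rose and 7 fell, and their summed signal was 7379 to 8403 in H69M and 12153 to 12596 in H69. Of 12 fibroblast markers, of which 3 in H69M and 7 in H69 lay below the 25th percentile, 10 rose and 0 fell, with sums of 9431 to 12344 in H69M and 911.4 to 936.0 in H69. Endothelial markers (4 rose and 1 fell of 10) summed to 519.9 to 796.1 in H69M and 454.8 to 497.0 in H69. Of these 10, 7 in H69M and 9 in H69 lay below the 25th percentile, and 5 did not pass. TEK had the largest change among them, with 8.44, 8.58 and 6.64 in H69M, against 4.65, 4.76 and 4.41 in H69 (log2). Leukocyte markers (1 rose and 4 fell of 11) summed to 470.6 to 474.5 in H69M and 450.0 to 474.0 in H69. Below the 25th percentile lay 6 of these 11 in H69M and 7 in H69, and 6 did not pass. Over all genes 21.0% rose and 23.2% fell. The part of these marker shifts in the ABC results was not tested. In bulk RNA, fewer cells of a type and less RNA per cell cannot be told apart.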

How the data were processed

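Total RNA of H69M and H69 was amplified, labelled with biotin and hybridised to Affymetrix whole-transcript arrays, per the labels' protocols. The deposited values are log2 levels for each probe set. RMA and limma, with no version, stand in the submitters' processing notes. RMA as usually run corrects background, quantile normalizes arrays to each other and summarises probes by median polish. Which software and build lie behind them is not given in the sources used.

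Of 32321 probe sets, 19158 had 1 gene symbol in the platform annotation, 1388 had several and 11775 were not listed. Genes were named from the first kind. A gene with several probe sets was read from the one with the highest mean. Of the probe sets used, 19128 matched RefSeq by Entrez ID, and 0 symbols changed. H69M was compared with H69 in limma 3.58.1 (R 4.3.3; lmFit, eBayes, trend off, two-sided, group only) over all 18404 genes, with Benjamini-Hochberg adjustment at 0.05. Precision is limited by the number of arrays, and the median SE was 0.075 in log2. Python 3.11.15, pandas 2.3.3 and matplotlib 3.10.9 made summaries and plots.

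The members, lists and alternatives were chosen with earlier results of these data known. Every efflux gene is named, and other members past the threshold with a change of at least 0.5 in log2 are given in full. From the regulator, partner and uptake and conjugation lists, up to 4 genes past the threshold with the largest absolute changes are named. RXRA and RXRB were added beside RXRG. From the marker lists, INSM1 and TEK are named. Alternatives changed the scaling, the filter on low levels, the variance model, array weights, the probe set per gene or the replicate block, or left out an array. Marker sums add the antilogs of the log2 levels. Deviations of same-numbered arrays from their line's mean correlated at 0.0072 to 0.021 across genes, so the values show no pairing by number. Whether same-numbered arrays were handled together is not labelled. The fit was tested on simulated data for the H69M and H69 arrays. With 200 altered among 18404 genes, it gave 8% recovery at 0.25 in log2, 56% at 0.5, 88% at 1 and 100% at 2. There were 3 false calls. In the data 8140 genes were called, so the adjusted threshold was less strict there than in the simulation. These recovery rates therefore do not carry over to the comparison of H69M and H69.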

Additional observations from a re-analysis of the deposited data

How the results depend on the processing

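Of the 17 called ABC genes, 14 kept their call and direction under each of the 16 alternatives in which they were tested, and the other 3 (ABCB4, ABCB8 and ABCG1) lost it under at least 1. Of the 26 members not called, 6 passed under at least 1. A replicate block left 6 members higher and gave 12 lower, and over all genes 3617 higher and 4021 lower; ABCA1 was the only member whose call it changed.

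Leaving out genes below the 25th percentile of level left 3 ABC genes higher, and leaving out those below the median left 1, because fewer members were tested. The efflux median log2 fold change became 0.42 and -0.11 under these filters and -0.11 with a wider efflux list of 15 measured genes. The median of the other members was -0.23 under both filters, -0.0092 with the wider list, -0.073 with arrays centred on their medians and -0.021 with quantile normalization applied again. These scalings moved the median of all genes by 0.030 and 0.035.

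Without each array in turn, the counts were 6 to 8 ABC genes higher and 8 to 12 lower. The efflux median was 0.029 (without H69M replicate 1) to 0.17 (without H69 replicate 2), and the median of the other members -0.11 to -0.037, with the higher value without H69 replicate 2. The cause of these shifts was not tested. Dim probe sets without a detection call limit what can be said of ABCB1, ABCB5, ABCC11, ABCC2 and ABCG2. The same limit holds for the called genes ABCA13, ABCB4 and ABCC9, which were dim in both lines.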
